A study of Mus musculus with 4 samples.

Results

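The NRF2 antioxidant response genes analysed here are Nfe2l2, which encodes the transcription factor NRF2, and the target genes Nqo1, Gclc, Gclm, Txnrd1, Srxn1, Osgin1 and Hmox1. They are 8 of the 54464 genes in the count matrix and were listed by name. They were measured by single-nucleus RNA-Seq of liver from hepatocyte-specific Nampt knockout (HNKO) mice and WT littermates, 3 mice each. Both groups carry the floxed Nampt gene on the C57BL6/BomTac background, and HNKO mice in addition express Cre from the albumin promoter (Alb-Cre). The study describes the knockout as specific to hepatocytes. Whether Nampt was deleted in other cell types, cholangiocytes included, was not checked here. Per the study's methods, the mice were females of 8 to 12 weeks at the start, were fed a purified control diet for 6 weeks and received normal drinking water or nicotinamide riboside in it for the later weeks. The labels do not say which water these mice had. After 4250 nuclei per mouse had been sorted, all mice were pooled, and each nucleus was assigned to its mouse by a hashtag antibody. Mice are numbered here by the order of their hashtag names alone.

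NRF2 is the main activator of the antioxidant response in liver. Its protein is held at low levels by KEAP1, an adaptor that hands NRF2 to a CUL3 ubiquitin ligase. When KEAP1 is modified by oxidants or electrophiles, NRF2 escapes degradation, pairs with a small MAF protein and binds antioxidant response elements, while BACH1 competes for the same elements. GCLC and GCLM are the catalytic and modifier subunits of glutamate-cysteine ligase, the rate-limiting enzyme of glutathione synthesis. TXNRD1 reduces thioredoxin and SRXN1 repairs overoxidised peroxiredoxins, both with NADPH as the source of electrons. NQO1 reduces quinones, HMOX1 degrades heme, and OSGIN1 is an oxidative stress-induced growth inhibitor. NRF2 is regulated largely at the level of its protein, which these data do not measure.

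Promoters are shown because binding of NRF2 to such sequences is what the target genes are known to share. RefSeq promoters (build GRCm38.p6) run from 250 bases before to 50 bases after a gene start and were present for 6 of the 8 genes, with 8 promoters in all because Txnrd1 has 3. Gclc and Hmox1 had no entry. The core of the antioxidant response element was searched on both strands in the form TGACNNNGC alone. This form was present in 4 of the 8 promoters, and in 12.4% of all 32851 promoters of the same length. The 4 promoters that hold it are printed 5′ to 3′ on the strand of the gene, with the match in capitals.
Gclm (chr3:122245307-122245606, plus strand): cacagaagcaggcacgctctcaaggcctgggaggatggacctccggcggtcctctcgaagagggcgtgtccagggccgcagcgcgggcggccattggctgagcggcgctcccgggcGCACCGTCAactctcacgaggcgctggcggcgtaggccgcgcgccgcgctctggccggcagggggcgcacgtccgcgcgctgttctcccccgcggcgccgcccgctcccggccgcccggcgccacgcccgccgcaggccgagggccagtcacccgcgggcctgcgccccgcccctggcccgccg
Nfe2l2 (chr2:75704614-75704913, minus strand): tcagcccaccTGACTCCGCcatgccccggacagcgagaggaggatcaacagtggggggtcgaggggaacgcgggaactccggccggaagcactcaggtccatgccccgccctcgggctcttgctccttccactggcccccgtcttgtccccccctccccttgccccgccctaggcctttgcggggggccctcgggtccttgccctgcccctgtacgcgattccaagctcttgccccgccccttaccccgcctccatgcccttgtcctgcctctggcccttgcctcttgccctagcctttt
Srxn1 (chr2:152105274-152105573, plus strand): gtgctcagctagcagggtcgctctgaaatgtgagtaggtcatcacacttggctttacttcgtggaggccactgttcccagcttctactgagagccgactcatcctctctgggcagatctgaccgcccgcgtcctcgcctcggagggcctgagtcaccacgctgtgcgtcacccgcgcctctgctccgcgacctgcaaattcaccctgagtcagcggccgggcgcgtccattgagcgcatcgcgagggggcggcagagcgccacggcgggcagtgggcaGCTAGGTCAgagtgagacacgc
Txnrd1 (chr10:82858956-82859255, plus strand): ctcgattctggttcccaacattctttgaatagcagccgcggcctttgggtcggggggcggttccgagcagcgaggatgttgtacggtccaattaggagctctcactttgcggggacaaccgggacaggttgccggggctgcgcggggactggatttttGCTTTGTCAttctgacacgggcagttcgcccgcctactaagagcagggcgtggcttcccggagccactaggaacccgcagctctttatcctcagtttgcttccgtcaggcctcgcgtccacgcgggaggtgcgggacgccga
The match begins 240 bases before the start of Nfe2l2, 134 bases before that of Gclm, 92 bases before that of Txnrd1 and 28 bases after that of Srxn1. It lies on the strand of the gene in Nfe2l2 and on the opposite strand in the other 3. The promoters of Nqo1 and Osgin1 and the remaining promoters of Txnrd1 held no match, which says only that these letters are not in these windows. Forms of the element with G in place of the first C were not searched, counted or marked. Such a form can be read, unmarked, in the Srxn1 promoter and on the opposite strand in that of Osgin1. A promoter without a match is therefore not shown to lack the element. The gene bodies, by the GENCODE annotation of build GRCm38, lie at chr2:75675513-75704641 (Nfe2l2), chr8:107388225-107403206 (Nqo1), chr9:77754535-77794485 (Gclc), chr3:122245557-122270732 (Gclm), chr10:82833951-82897712 (Txnrd1), chr2:152105516-152111376 (Srxn1), chr8:119434124-119446256 (Osgin1) and chr8:75093621-75100589 (Hmox1). Values of Gclm and Txnrd1 are less certain than the others, since the pseudogene Gm6061 and an antisense transcript overlap Gclm, and Eid3 and antisense transcripts overlap Txnrd1. A small nuclear RNA gene lies within Nfe2l2.

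The deposited matrix held 5193 nuclei with distinct barcodes, 629 to 778 per WT mouse and 950 to 1063 per HNKO mouse. Of these, 562 to 847 per mouse were hepatocytes, with 3524052 to 6634851 unique molecular identifiers (UMIs, the counted RNA molecules) per mouse, and 77.4% to 80.6% of their UMIs were unspliced. All 8 hepatocyte markers (Alb, Apoa1, Apob, Ttr, Serpina1a, Cps1, Fgb and Tat) were detected in the hepatocytes of each mouse. Nampt itself was 91.6, 108 and 103 CPM (UMIs scaled to a common library size) in WT mice and 91.7, 147 and 71.0 CPM in HNKO mice (log2 fold change 0.030, SE 0.27, edgeR adjusted p = 0.985). This does not check the genotype, because introns were counted and the part of the gene that Cre removes is not given in the sources used here. HNKO mouse 3 stood apart from the rest. Its hashtag made up 49.0% of the hashtag counts of its nuclei against 66.1% to 80.3% in the other mice, and its hepatocyte markers summed to 10167 CPM against 22907 to 30068 CPM. The genotype comparisons below are therefore also given without it, where enough counts remained.

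In hepatocytes, the question was whether loss of Nampt changed the NRF2 response. All 8 genes had a higher mean in HNKO than in WT mice, and no difference passed the test. UMIs were summed per mouse, scaled by the trimmed mean of M values (TMM) and tested with edgeR's quasi-likelihood test with Benjamini-Hochberg adjustment at an adjusted p of 0.05. The test called 0 of 11810 genes (0%), with 698 at an unadjusted p under 0.05, while DESeq2 called 21 genes and none of the 8. The median log2 fold change (HNKO over WT) was 0.67 over the 8 genes and 0.019 over all genes tested, of which 52.4% lay above 0.

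Nfe2l2 was the steadiest of the genes in WT mice, with TMM-scaled levels of 126, 125 and 131 CPM, and measured 141, 149 and 279.6 CPM in HNKO mice. The groups did not overlap, as was the case for 11.6% of all genes tested, and HNKO mice 1 and 2 were close to the WT range whereas HNKO mouse 3 was far above it. With n = 3 each, the mean ± SD was 127 ± 3.13 CPM for WT and 189.9 ± 77.8 CPM for HNKO, a log2 fold change of 0.58 (SE 0.28, edgeR adjusted p = 0.820). Without HNKO mouse 3 it was 0.20 (SE 0.15, edgeR adjusted p = 0.975).

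The genes of glutathione synthesis also had their highest level in HNKO mouse 3, and did not separate the other mice by genotype. Gclc, the catalytic subunit, was 175, 122 and 127 CPM in WT mice and 146, 123 and 280.4 CPM in HNKO mice. Gclm, the modifier subunit, was 49.96, 43.9 and 28.2 CPM in WT mice and 47.5, 46.6 and 112 CPM in HNKO mice. For both genes HNKO mice 1 and 2 lay inside the WT range and HNKO mouse 3 above every other mouse. The log2 fold change was 0.37 (SE 0.33) for Gclc and 0.76 (SE 0.39) for Gclm, with edgeR adjusted p = 0.851 and 0.820. Without HNKO mouse 3 the values were -0.063 and 0.22, so that the sign of the Gclc difference turned.

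Of the thioredoxin branch, Txnrd1 was 73.0, 57.5 and 59.5 CPM in WT mice and 58.7, 64.6 and 83.2 CPM in HNKO mice. Its groups overlapped widely and its log2 fold change of 0.12 (SE 0.20, edgeR adjusted p = 0.918) was the smallest of the 8. Srxn1 was found in 5 to 42 UMIs per mouse. It measured 1.53, 2.35 and 1.43 CPM in WT mice and 3.12, 0.992 and 5.98 CPM in HNKO mice, with a log2 fold change of 0.93 (SE 0.63, edgeR adjusted p = 0.830). HNKO mouse 2 had the lowest and HNKO mouse 3 the highest Srxn1 level. Without HNKO mouse 3 the log2 fold change was -0.028 for Txnrd1 and 0.22 for Srxn1.

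Osgin1 varied most in WT mice among the genes with over 1000 hepatocyte UMIs, at 43.8, 18.8 and 13.4 CPM, and was 19.7, 24.1 and 103 CPM in HNKO mice. Its mean ± SD of 25.3 ± 16.2 CPM for WT and 49.0 ± 47.0 CPM for HNKO gave a log2 fold change of 0.97 (SE 0.69, edgeR adjusted p = 0.830), which turned to -0.18 without HNKO mouse 3. Nqo1 and Hmox1 are often used as markers of NRF2 activity, but both were near the limit of detection in hepatocyte nuclei. Nqo1 was 2.45, 1.57 and 0.239 CPM in WT mice and 0.493, 2.81 and 5.41 CPM in HNKO mice. Hmox1 was 2.76, 2.09 and 1.43 CPM in WT mice and 0.822, 1.98 and 4.84 CPM in HNKO mice. These levels rest on 73 Nqo1 and 74 Hmox1 UMIs in total, and HNKO mouse 1 was inside or below the WT range for both. The log2 fold change was 1.104 (SE 0.88) for Nqo1 and 0.33 (SE 0.63) for Hmox1, with edgeR adjusted p = 0.842 and 0.938. Without HNKO mouse 3, Nqo1 differed by 0.29 and Hmox1 fell below the count filter. With WT mouse 1 or WT mouse 3 left out instead, Nqo1 differed by 1.71 or 0.55, and Hmox1 ranged from 0.095 (without WT mouse 3) to 0.73 (without HNKO mouse 1).

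**Figure D1:**
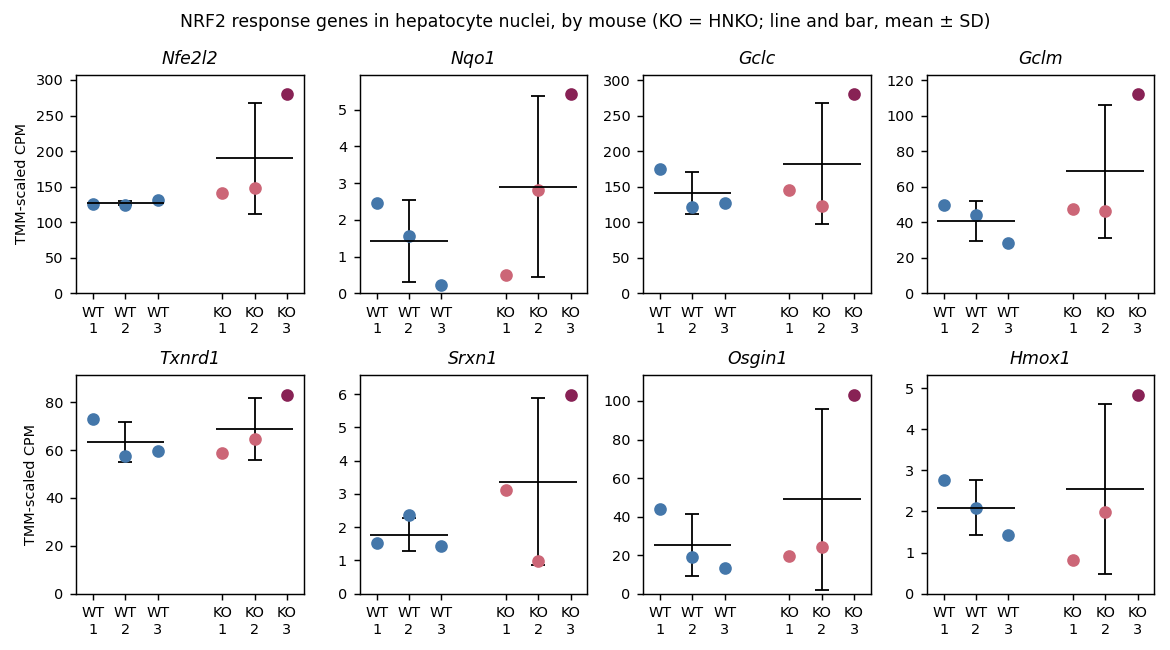
TMM-scaled CPM (vertical axes, linear) of each gene in the hepatocyte sums of 3 WT and 3 HNKO mice, with 1 point per mouse and the mean ± SD of each genotype as a line and bar. HNKO mouse 3 has the highest point in each of the 8 panels, and HNKO mice 1 and 2 both lie within the WT range for Gclc, Gclm, Txnrd1 and Osgin1.

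All 8 genes had their highest hepatocyte level in HNKO mouse 3, a pattern that was singled out after the values were seen and is given without a test. The 8 genes themselves were chosen with earlier results of these data known. Over all genes tested, 29.6% had their highest level in that mouse. In 7 of the 8 genes, all but Txnrd1, HNKO mouse 3 was at least 1.5 times the next highest mouse, against 762 of 11810 genes (6.45%). Its ratio to the next highest mouse was 1.88 for Nfe2l2, 1.60 for Gclc, 2.24 for Gclm and 2.36 for Osgin1. In no other mouse did any of the 8 genes reach this margin, and 0.305% to 2.49% of all genes did so.

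The scaling bears on this count. HNKO mouse 3 had a TMM factor of 1.278 against 0.9173 to 1.011 in the other mice. When CPM were scaled to UMI totals instead, a choice made after seeing the data, the median log2 difference between HNKO mouse 3 and the WT mean over all genes shifted from 0.016 to 0.45. All 8 genes then passed the margin of 1.5, against 20.4% of all genes. The direction of each of the 8 mean differences was the same with both scalings.

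For Nfe2l2 and Osgin1, the higher levels in HNKO mouse 3 were seen at each depth of nuclei. When its hepatocyte nuclei were split by UMI count into 3 groups of equal size, Nfe2l2 was 288, 335 and 381 CPM (UMI totals) from the shallow to the deep group, against 100.2 to 157 CPM in such groups of the other mice. Osgin1 was 184, 137 and 119 CPM from the shallow to the deep group of HNKO mouse 3, against 10.2 to 45.0 CPM elsewhere. Hmox1 did not follow, at 10.0 CPM in the shallow group of WT mouse 1 (4 UMIs) against 4.16 CPM in that of HNKO mouse 3 (3 UMIs). These are UMI totals, on which HNKO mouse 3 lay above the WT mean by a median log2 difference of 0.45 over all genes. The share of all genes with this depth pattern was not counted. The share of Osgin1 UMIs in its top nuclei, which falls as counts rise, was lowest in that mouse. The 5% of hepatocyte nuclei with the most Osgin1 UMIs held 34.9% of its UMIs in HNKO mouse 3 and 56.2% to 73.2% in the other mice, at 725 UMIs against 56 to 146. Markers of other cell types were low in these hepatocyte sums. The 8 Kupffer cell markers summed to 15.9 CPM in HNKO mouse 3 against 6.64 to 13.0 CPM, the 10 CD45+ markers to 19.97 against 13.8 to 19.5 CPM, and the 8 endothelial markers to 49.7 against 36.4 to 41.8 CPM. The 8 stellate markers summed to 135 CPM against 34.3 to 199.9 CPM and the 8 cholangiocyte markers to 500.2 CPM against 299.7 to 618 CPM, with Krt19 at 0 in all mice. The part of these differences, of the hashtag share and of the lower hepatocyte markers in the levels of the 8 genes was not tested.

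**Figure D2:**
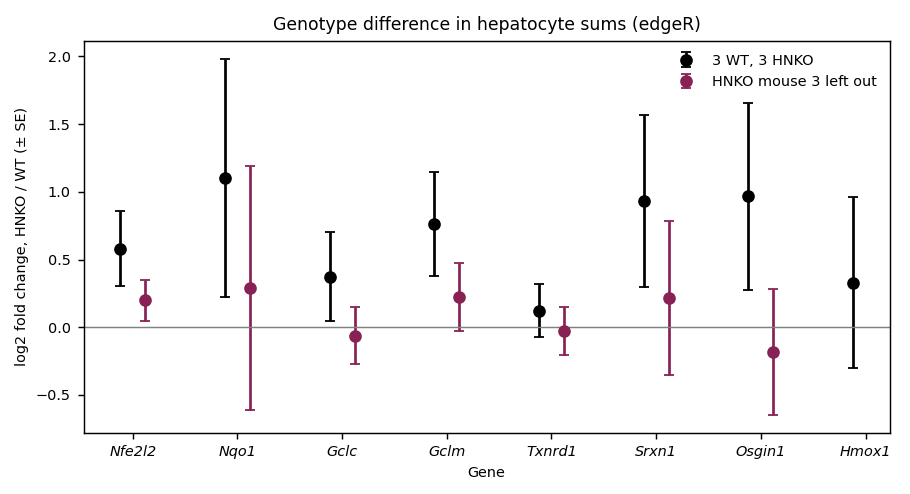
Log2 fold change of HNKO over WT with its SE (vertical axis) for the 8 genes (horizontal axis), from edgeR on hepatocyte sums of all 6 mice (black) and with HNKO mouse 3 left out (purple). With all mice the 8 values lie between 0.12 and 1.104, and without HNKO mouse 3 the 7 genes that could be tested lie between -0.18 and 0.29.

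None of the regulators of NRF2 passed the test, and their differences had both signs. Of 14 regulators listed (the KEAP1-CUL3 ligase, small MAF and BACH factors and related genes), 12 were tested in hepatocytes, and 7 had a log2 fold change above 0. The median was 0.039, or 0.017 without HNKO mouse 3. Cul3, the ligase scaffold, had a log2 fold change of -0.38 (SE 0.16, unadjusted p = 0.0416, edgeR adjusted p = 0.820). Bach1, the repressor that competes with NRF2, had one of -0.56 (SE 0.19, unadjusted p = 0.0196, edgeR adjusted p = 0.820). The small MAF genes differed in sign, with 0.69 (SE 0.37) for Mafk and -0.46 (SE 0.60) for Maff. With HNKO mouse 3 left out these 4 values were -0.32 for Cul3, -0.42 for Bach1, 0.46 for Mafk and 0.029 for Maff, so that the sign of the Maff difference turned. No regulator was 1.5 times higher in HNKO mouse 3 than in the next mouse.

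Of 48 other NRF2 target genes listed, 34 were tested in hepatocytes, 18 had a log2 fold change above 0, with a median of 0.072, and none passed the test. The 5 tested genes of NADPH supply had a median of 0.53, and Pgd, an enzyme of the pentose phosphate pathway, had a log2 fold change of 0.91 (SE 0.37, edgeR adjusted p = 0.820). Of the others, Gstm1, a glutathione transferase, had 0.74 (SE 0.33), the epoxide hydrolase Ephx1 0.67 (SE 0.34) and the UDP-glucose dehydrogenase Ugdh 0.57 (SE 0.38). The 4 thioredoxin genes had a median of -0.15, the 8 glutathione genes one of 0.18, the 12 detoxification genes one of -0.034 and the 5 iron and heme genes one of 0.14. When HNKO mouse 3 was left out, the median of the 34 genes was -0.052, with 15 above 0, and the medians of the 5 lists were -0.038 (NADPH supply), -0.32 (thioredoxin), 0.14 (glutathione), -0.27 (detoxification) and 0.018 (iron and heme). Pgd was then 0.65, Gstm1 0.59, Ephx1 0.46 and Ugdh 0.021, and none of the 34 passed the test. HNKO mouse 3 was highest in 17 of the 34 and passed the margin of 1.5 in 5, Tkt, Ugdh, Akr1c13, Entpd5 and Blvrb, which are named here for their values. Tkt, a transketolase, was 15.8 to 22.8 CPM in the other mice and 49.4 CPM in HNKO mouse 3. Among 14 tested antioxidant genes that are not classical NRF2 targets, such as superoxide dismutases and glutathione peroxidases, HNKO mouse 3 was highest in 4 and passed the margin in 0, and their median log2 fold change was -0.030.

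Of the 13 hepatocyte clusters named by the authors, 3 came mostly from HNKO mouse 3, and the genes are described in these beside the other clusters. Of the 847 hepatocyte nuclei of HNKO mouse 3, 842 lay in the clusters that the authors named HNKO 2, HNKO 3 and Central HNKO 2, each of them to over 90% from that mouse. In these 3 clusters Nfe2l2 was 388, 295 and 354 CPM (UMI totals), and in the other 10 clusters 95.7 to 149 CPM. Gclc was 401, 296 and 243 CPM against 51.2 to 170.0 CPM. Gclm was 162, 107 and 123 CPM against 24.7 to 56.9 CPM. Osgin1 was 148, 110 and 90.2 CPM against 9.23 to 58.4 CPM. The ranges did not overlap for these genes, nor for Txnrd1 and Hmox1, whereas those of Nqo1 and Srxn1 did. Clusters were built from the same counts, and these 3 hold nearly all hepatocyte nuclei of HNKO mouse 3, so these values are a description. On UMI totals that mouse lay above the WT mean over all genes tested, at a median log2 difference of 0.45. How many of all genes separate these clusters was not counted.

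The clusters of the other HNKO mice did not share these levels. The cluster named HNKO 1, to 99.1% from HNKO mouse 1, had 134 CPM of Nfe2l2, 145 CPM of Gclc and 17.9 CPM of Osgin1. Central HNKO 1, to 98.9% from HNKO mouse 1, had the lowest Nfe2l2 (95.7 CPM) and Gclc (51.2 CPM) of all hepatocyte clusters. Among clusters from WT mice, Hepatocytes 4, to 96.6% from WT mouse 1, had the most Osgin1 (58.4 CPM) and Gclc (170.0 CPM).

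**Figure D3:**
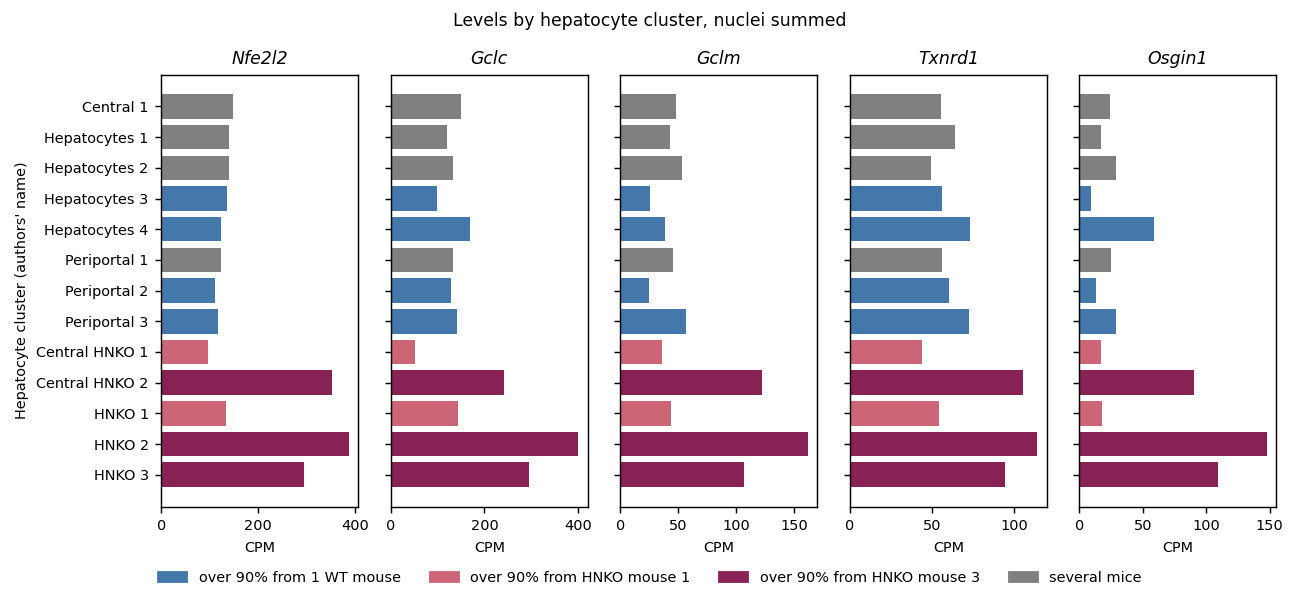
CPM scaled to UMI totals (horizontal axes) of Nfe2l2, Gclc, Gclm, Txnrd1 and Osgin1 in the 13 hepatocyte clusters (rows, by the authors' names), with bars coloured by the mouse that supplied over 90% of the nuclei, or grey where none did. The clusters HNKO 2, HNKO 3 and Central HNKO 2 have the longest bars for each gene.

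Over the 13 clusters the 5 genes with at least 500 hepatocyte UMIs had similar profiles, with Pearson's r of log2(CPM + 1) from 0.82 to 0.91 over their 10 pairs. These clusters share libraries and mice, and 3 of them come from HNKO mouse 3, so the values are a description with no test. Among 5845 genes with enough UMIs the profile most like that of Nfe2l2 was that of Gtf2h2 (r = 0.98), followed by Luc7l3 and Gm45083. That most like Gclc was Dsp (r = 0.96), followed by Psip1 and Actn1. For Gclm it was Mapre3 (r = 0.98), followed by Iqsec1 and Lipa, for Txnrd1 Mto1 (r = 0.95), followed by Rbm25 and AI480526, and for Osgin1 Zfp36l1 (r = 0.95), followed by Lipa and Anp32a. No member of the NRF2 group was among the nearest genes of another. The nearest was Gclm, at rank 23 from Osgin1 (r = 0.91).

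Hepatocytes differ along the liver lobule, and detoxification is known to be strongest around the central vein. To ask whether the NRF2 genes followed this axis, hepatocyte nuclei of each mouse were ranked by a score of pericentral over periportal genes, and the 2 ends of this ranking, each with 1 in 3 of the nuclei, were compared within mice. Of 9433 genes tested, 1726 (18.3%) differed between these zones, and none of the 5 NRF2 genes with enough UMIs did. Gclc was 150, 127, 136, 162, 129 and 392 CPM (UMI totals) in the periportal zone of WT mice 1 to 3 and HNKO mice 1 to 3, and 168, 115, 111, 83.0, 115 and 297 CPM in the pericentral zone. It was thus lower in the pericentral zone in all mice but WT mouse 1, with a log2 difference of -0.25 (SE 0.10, edgeR adjusted p = 0.110). This was the gene closest to a call, and leaving out WT mouse 1 gave -0.34 (edgeR adjusted p = 0.0365) whereas leaving out HNKO mouse 1 gave -0.13 (edgeR adjusted p = 0.409). Nfe2l2 had a log2 difference of 0.020 (SE 0.097), Gclm of -0.16 (SE 0.12), Txnrd1 of 0.035 (SE 0.10) and Osgin1 of 0.22 (SE 0.16). Osgin1 was higher in the pericentral zone of WT mouse 1 (61.3 against 27.2 CPM) and differed little in WT mice 2 and 3 (18.2 against 20.8 and 13.7 against 12.6 CPM). In HNKO mouse 3 both zones were above both zones of every other mouse for these 5 genes. Over all hepatocyte nuclei and all genes tested, UMI totals placed that mouse above the WT mean by a median log2 difference of 0.45. The share of all genes with this zone pattern was not counted. Pericentral zones were shallower, at a median of 2981 to 4090.5 UMIs per nucleus against 4079 to 7770, and the part of depth in these values was not tested. The periportal genes of the score were also low in the periportal zone of HNKO mouse 3, at 8981 CPM against 22728 to 28776 CPM in the other mice.

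Some of the other NRF2 targets differed between the zones. Of 33 tested, 11 were higher and 3 lower in the pericentral zone and the others did not pass the test, beside 982 higher and 744 lower among all 9433 genes. Of the 11 higher, 7 were in the list of 12 detoxification genes. In the other 5 mice, 11 of the 33 were higher and 4 lower. Those with the largest differences were Cyp2a5 (log2 difference 3.27, SE 0.14), the efflux pump Abcc4 (2.15, SE 0.33) and Blvrb (1.33, SE 0.13), a biliverdin reductase. Aox1, Prdx6, Gsta3, Ces1g, Entpd5, Abcc2, Mgst1 and Abcc3 were higher by 0.40 to 1.00. The iron exporter Slc40a1 (-0.97, SE 0.11), the glutathione synthetase Gss (-0.79, SE 0.12) and the malic enzyme Me1 (-0.66, SE 0.063) were lower. Of 12 regulators tested, Bach2 (0.56, SE 0.089) and Maff (0.67, SE 0.18) were higher in the pericentral zone and none was lower. The smallest and largest edgeR adjusted p of these 16 genes were 1.64e-12 and 0.0159.

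The difference between the zones did not pass the test of a change with genotype for any of the 5 genes. The interaction called 1 of 9433 genes (0.0106%) by edgeR. The log2 difference of the zone effect (HNKO minus WT) was -0.43 (SE 0.19, unadjusted p = 0.0337, adjusted p = 0.821) for Gclc and -0.38 (SE 0.18, unadjusted p = 0.0485, adjusted p = 0.833) for Nfe2l2. Those of Gclm, Txnrd1 and Osgin1 were 0.054, -0.12 and -0.60, with SE of 0.25, 0.21 and 0.32. Leaving out HNKO mouse 3 gave -0.46 for Gclc, -0.32 for Nfe2l2, 0.14 for Gclm, -0.14 for Txnrd1 and -0.60 for Osgin1, and none passed the test. None of the 12 regulators and 33 other targets tested was called either.

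**Figure D4:**
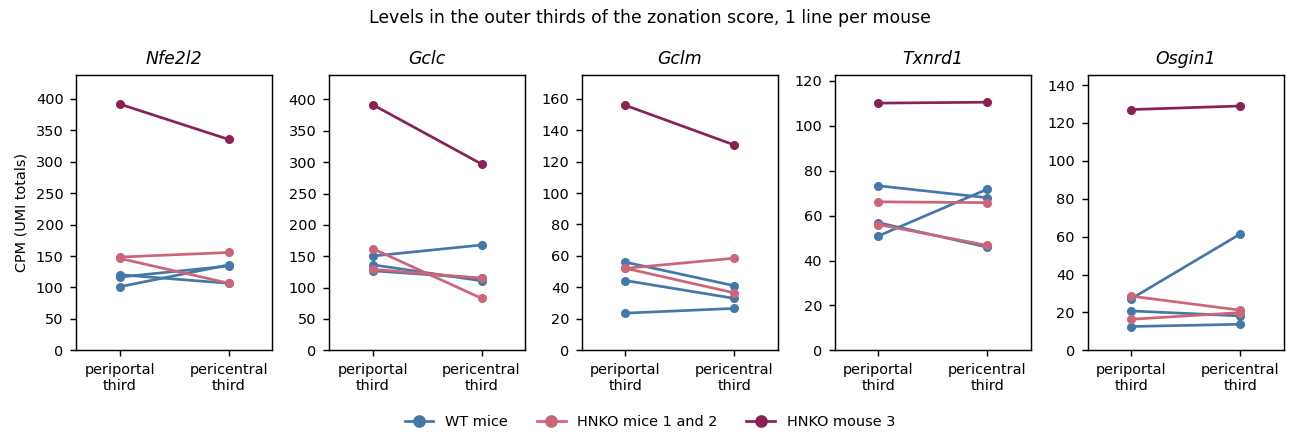
CPM scaled to UMI totals (vertical axes) of Nfe2l2, Gclc, Gclm, Txnrd1 and Osgin1 in the periportal and pericentral zones of hepatocyte nuclei, with 1 line per mouse. The line of HNKO mouse 3 lies above those of the 5 other mice in each panel, and Gclc is lower in the pericentral zone in 5 of 6 mice.

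Next, the 8 genes were described across cell types. A mouse entered with at least 10 nuclei of the type, which left all 6 mice for endothelial and stellate cells, 5 for CD45+ cells (all but WT mouse 3) and the 3 HNKO mice for Kupffer cells and cholangiocytes. The type's own markers summed to 2699 to 14762 CPM in it and to 8.42 to 618 CPM in hepatocytes of the same mice, with Krt19 at 0 in cholangiocytes and Marco at 0 in Kupffer cells of HNKO mouse 2. The other types also held hepatocyte RNA, given here as the summed CPM of the 8 hepatocyte markers in percent of the hepatocyte level. This was 15.9% to 38.5% in endothelial cells, 4.55% to 33.5% in stellate cells and 32.3% to 50.7% in CD45+ cells. It was 8.60% to 29.1% in Kupffer cells and 7.06% to 18.6% in cholangiocytes. Single markers ranged more widely, from 6.74% to 63.6% in endothelial cells, 0% to 59.6% in stellate cells and 4.81% to 109% in CD45+ cells. In Kupffer cells and cholangiocytes they ranged from 2.49% to 40.2% and from 2.27% to 72.8%. Later percentages are of the summed markers unless single markers are named. Sums were small, at 37111 to 355141 UMIs per mouse, so that 3 UMIs corresponded to 8.45 to 80.8 CPM. Levels are shares of a type's UMIs, so that more of one RNA and less of the others cannot be told apart. Between types, 25 pairs of gene and type would hold at least 10 UMIs at the hepatocyte level, a limit set after seeing the data. In 10 of these the level was below that of hepatocytes in every mouse. In 2, both in cholangiocytes with 3 mice, it was above. How often other genes do so was not counted, so these counts are a description.

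Nfe2l2 was detected in each type. Its mean was highest in cholangiocytes (252 ± 143 CPM, n = 3), followed by hepatocytes (166 ± 94.4 CPM, n = 6), Kupffer cells (162 ± 39.6 CPM, n = 3), CD45+ cells (160.2 ± 72.1 CPM, n = 5), endothelial cells (110.2 ± 43.9 CPM, n = 6) and stellate cells (86.4 ± 17.4 CPM, n = 6), all SD. The means of cholangiocytes and Kupffer cells cover HNKO mice alone, in whose hepatocytes the mean was 212 ± 126 CPM (SD, n = 3). The first 4 types overlapped widely between mice. Endothelial and stellate levels were below the hepatocyte level in each of 6 mice, at 55.6% to 80.6% and 31.0% to 84.8% of it. Cholangiocytes exceeded hepatocytes of the same mouse in all 3 HNKO mice, at 180.5, 160.1 and 417 against 129.6, 150.3 and 357 CPM. The authors' cholangiocyte clusters differed in this. In HNKO mice 1 and 3, Cholangiocyte 1 held 199 and 477 CPM. Cholangiocyte 2 held 76.6 and 152 CPM (3 and 10 UMIs), below the hepatocytes of these mice.

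Gclm was the gene that set cholangiocytes most apart. It was 154, 222 and 163 CPM in cholangiocytes of HNKO mice 1 to 3 against 43.6, 47.0 and 143 CPM in their hepatocytes. The cholangiocyte values rested on 40, 9 and 57.9 UMIs. In HNKO mice 1 and 3, Gclm was 172 and 176 CPM in the cluster Cholangiocyte 1. In Cholangiocyte 2 it was 51.1 and 106 CPM (2 and 7 UMIs), the latter below the hepatocytes of HNKO mouse 3. Endothelial cells were below hepatocytes in every mouse, at 33.6% to 92.2%. In the 3 HNKO mice Gclc was 205 ± 133 CPM (SD) in hepatocytes and 175 ± 111 CPM in cholangiocytes, which overlapped, and cholangiocytes were below hepatocytes of the same mouse in 2 of 3. Its mean was lowest in stellate cells. There it was 24.7, 17.6 and 10.0 CPM in WT mice (1 to 2 UMIs each) and 86.7, 20.5 and 125 CPM in HNKO mice, or 8.37% to 64.8% of the hepatocyte level where hepatocyte markers stood at 4.55% to 33.5%.

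Txnrd1 had its highest mean in Kupffer cells, at 213, 53.9 and 176 CPM in HNKO mice 1 to 3 against 53.8, 65.3 and 106 CPM in hepatocytes, with 22, 2 and 16.5 UMIs. The mice did not agree in direction, since HNKO mouse 2 was lower. Osgin1 was below hepatocytes in all 6 endothelial sums, which held 7 UMIs where 37.5 were expected at the hepatocyte level. In stellate cells of HNKO mouse 3 it was 66.4 CPM on 9 UMIs, against 0 to 35.3 CPM in the other mice. This was 50.4% of the hepatocyte level of that mouse. Single hepatocyte markers stood there at 22.9% to 59.6%, the most of all stellate sums by percentage. In CPM the 8 markers summed to 3410 there, against 4356 in HNKO mouse 1 and 1368 to 3084 in the other mice. The part of hepatocyte RNA was not tested.

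Hmox1 had its highest mean in Kupffer cells (78.0 ± 63.4 CPM, SD, n = 3). Kupffer cells, the resident macrophages that recycle heme iron, held 58.2, 26.9 and 149 CPM in HNKO mice 1 to 3 on 6, 1 and 14 UMIs, against 0.754, 2.00 and 6.19 CPM in their hepatocytes. Kupffer cells were above hepatocytes in all 3 mice, although the value of HNKO mouse 2 is that of a single UMI. In CD45+ cells Hmox1 was 73.0 CPM in HNKO mouse 1 (20 UMIs, all in the cluster CD45+ 1), which was above the Kupffer cells of that mouse. It was 6.12 CPM in HNKO mouse 3 and 0 in the other mice. The other types held 1 to 5 Hmox1 UMIs in all. Nqo1 and Srxn1 were found in 0 to 3 UMIs per type outside hepatocytes, fewer than 4 were expected there at the hepatocyte level, and no difference was detectable at this depth.

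**Figure D5:**
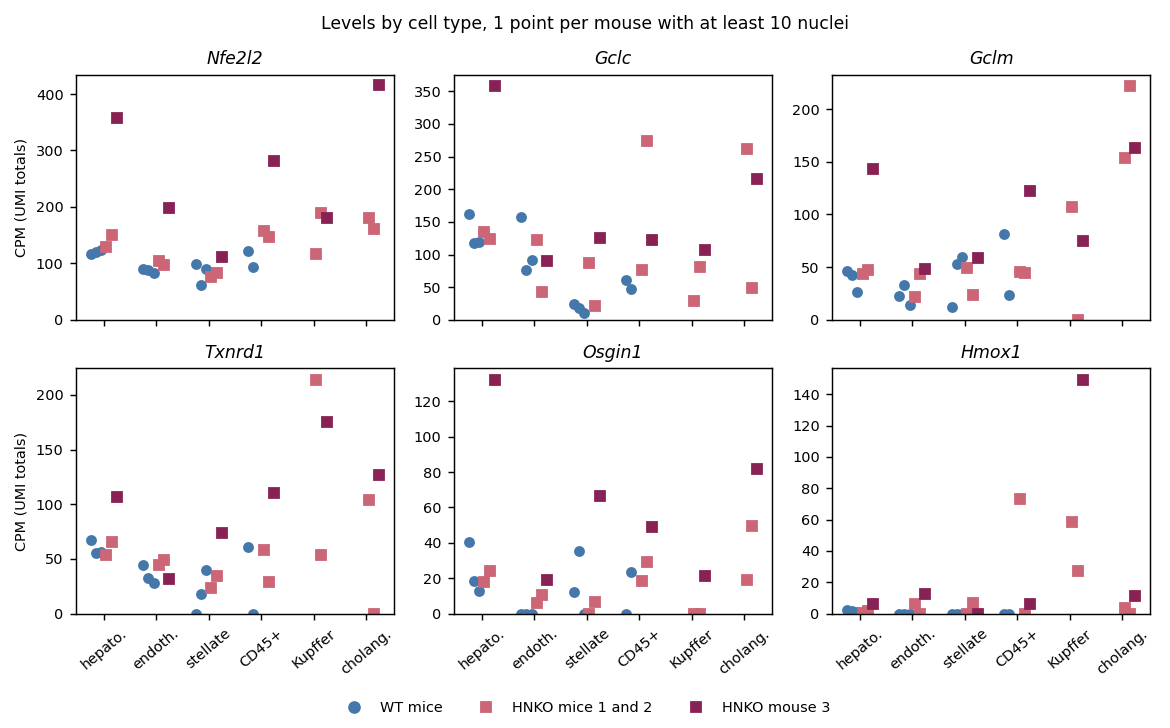
CPM scaled to UMI totals (vertical axes) of 6 genes in 6 cell types, with 1 point per mouse with at least 10 nuclei of the type. Hmox1 has its highest mean in Kupffer cells (26.9 to 149 CPM), with CD45+ cells of HNKO mouse 1 at 73.0 CPM, and Gclm in cholangiocytes lies above the hepatocyte level of the same mouse in all 3 HNKO mice.

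Finally, the genotypes were compared within endothelial, stellate and CD45+ cells, in which Nampt is not expected to be deleted. edgeR called none of the tested genes in endothelial cells (0% of 2743, 104 at an unadjusted p under 0.05), stellate cells (0% of 2266, 158) or CD45+ cells (0% of 2703, 224), and DESeq2 called 1, 1 and 4. Few NRF2 genes passed the count filter there. Nfe2l2 in endothelial cells was 89.6, 88.0 and 83.1 CPM (UMI totals) in WT mice and 104.5, 97.6 and 199 CPM in HNKO mice. The groups did not overlap in these values. In TMM-scaled CPM, a different scaling, 9.92% of the genes tested there did not overlap. HNKO mouse 3 was again the highest. The log2 fold change was 0.57 (SE 0.40, edgeR adjusted p = 0.995), or 0.22 without that mouse. Hepatocyte markers stood at 38.5% of the hepatocyte level in the endothelial sum of HNKO mouse 3 and at 15.9% to 30.6% in those of the other mice. That hepatocyte level was itself lowest in HNKO mouse 3. In CPM the markers summed to 3917 in its endothelial cells and to 4773 to 8048 in those of the other mice. The part of hepatocyte RNA in the Nfe2l2 values was not tested. Gclc in endothelial cells had a log2 fold change of -0.30 (SE 0.46, edgeR adjusted p = 0.995). Of the other pathway genes, 5 regulators and 5 targets were tested in endothelial cells, and the target with the largest difference was Me1 at 1.39 (SE 0.49, edgeR adjusted p = 0.995).

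In CD45+ cells Nfe2l2 was 122 and 93.4 CPM in WT mice 1 and 2 and 157, 147 and 281 CPM in HNKO mice, without overlap, and Gclc was 61.0 and 46.7 against 76.7, 274 and 122 CPM. With 2 against 3 mice, 26.5% of the genes tested in CD45+ cells did not overlap in TMM-scaled CPM, whereas these levels are scaled to UMI totals. The WT values rest on 2 to 6 UMIs each. The CD45+ type joins the clusters CD45+ 1, 2 and 3, with Nfe2l2 at 199, 137 and 184 CPM. CD45+ 1 held 52, 14 and 25 of the 68, 26 and 45 CD45+ nuclei of HNKO mice 1 to 3. It held fewer than 10 of the 15 and 16 of WT mice 1 and 2. The part of this mix in the genotype differences was not tested. The log2 fold changes were 0.82 (SE 0.53) and 1.42 (SE 0.79), with edgeR adjusted p = 0.734 and 0.668. In stellate cells Nfe2l2 was 98.9, 61.8 and 89.9 CPM in WT mice and 75.1, 82.2 and 111 CPM in HNKO mice, which overlapped, and its log2 fold change was -0.013 (SE 0.43, edgeR adjusted p = 0.994). Without HNKO mouse 3, Nfe2l2 differed by 0.49 in CD45+ cells, whereas Gclc in CD45+ cells and Nfe2l2 in stellate cells fell below the count filter. Among other pathway genes, Bach2 had a log2 fold change of -0.92 (SE 0.39, edgeR adjusted p = 0.593) and Gsta3, a glutathione transferase, of 2.55 (SE 1.04, edgeR adjusted p = 0.568) in CD45+ cells, and the bile pigment exporter Abcc2 of 1.51 (SE 0.46, edgeR adjusted p = 0.644) in stellate cells. If HNKO mouse 3 was left out, Bach2 differed by -1.28 and Abcc2 by 1.14, and Gsta3 fell below the count filter. Hepatocyte markers in CD45+ cells of WT mice 1 and 2 stood at 38.1% and 32.3% of the hepatocyte level, against 34.3%, 50.7% and 49.7% for HNKO mice 1 to 3. In CPM they summed to 8718 and 7927 against 9017, 13083 and 5049. Their part in the Gclc and Gsta3 values was not tested. Hepatocyte markers in stellate cells were 8.22% to 33.5% of the hepatocyte level in HNKO mice and 4.55% to 12.6% in WT mice. In CPM they summed to 2122 to 4356 in HNKO mice and 1368 to 3084 in WT mice. Their part in the Abcc2 value was not tested.

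The genotype effects of hepatocytes and endothelial cells were compared by an interaction term with mouse as a block, which called 11 of 11517 genes (0.0955%) by edgeR, with Me1 among them and none of the 8 genes. The log2 difference (hepatocytes minus endothelial cells) was -0.12 (SE 0.43, edgeR adjusted p = 1) for Nfe2l2 and 0.51 (SE 0.43, edgeR adjusted p = 0.943) for Gclc. The difference was 0.017 (SE 0.77) for Gclm and -0.29 (SE 0.63) for Txnrd1. Without HNKO mouse 3 the values were -0.26 for Nfe2l2, 0.051 for Gclc, -0.32 for Gclm and -0.68 for Txnrd1. For Nqo1, Osgin1 and Hmox1 no fold is given, because endothelial cells held 3, 7 and 4 UMIs in all, and Srxn1 had none.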

How the data were processed

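Nuclei of 3 WT and 3 HNKO livers carried 1 hashtag per mouse and were sequenced as pools on the 10x 3′ platform. The authors mapped reads with Alevin to GRCm38 and GENCODE M25 (FASTQ files from Cell Ranger version 5.0.1, per the submitters' processing notes) and deposited estimated counts (UMIs per gene and nucleus), of which 10.1% of nonzero values were not whole to within 0.001. They also deposited SCTransform values, a normalized score in whole numbers, and hashtag counts as raw whole numbers. Nuclei without a hashtag call or with hashtags of several mice had been removed, and cluster names were the authors'. No doublet caller was run here.

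Estimated UMI counts were summed per mouse and type and rounded. Sums were tested in R version 4.3.3 with edgeR version 4.0.16 (filterByExpr, TMM, quasi-likelihood F test, two-sided, Benjamini-Hochberg, threshold 0.05) in a model of genotype. Zone and interaction models had mouse as a block. DESeq2 version 1.42.0, RLE size factors, no filter, thinning to 1000 UMIs per nucleus, mean CPM per nucleus, a narrower cut of the zone score and leaving out each mouse were tried as alternatives. The zone score was log2((pericentral UMIs + 1)/(periportal UMIs + 1)), and its genes were left out of the zone tests. The tests were tested on simulated data first. Tables and figures were made in Python version 3.11.15 with matplotlib version 3.10.9, pandas version 2.3.3, numpy version 2.4.6 and scipy version 1.17.1.

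Hepatocyte genotype values are TMM-scaled CPM and all other levels are CPM of UMI totals, which do not compare genes of different length or intron content. SD values are between mice. With all mice kept, the tests of genotype within a type compare mice, 5 in CD45+ cells and 6 in the others. The zone and interaction tests, with mouse as a block, rest on differences within mice. The 8 genes were always named. Of regulators and other targets those past the threshold were named, or else the 4 with the largest absolute log2 fold change and at least 100 UMIs. Members and lists were chosen with earlier results of these data known.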

Additional observations from a re-analysis of the deposited data

Results flagged for a closer look

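In 2 genes of the antioxidant lists the genotype effect differed between hepatocytes and endothelial cells by the interaction test. Me1, the cytosolic malic enzyme and an NRF2 target, was 757, 457 and 476 CPM (UMI totals) in WT hepatocytes and 201, 946 and 289 CPM in HNKO hepatocytes, against 78.4, 22.0 and 55.4 CPM in WT and 104, 206 and 109 CPM in HNKO endothelial cells. The log2 difference of the effect (hepatocytes minus endothelial cells) was -2.11 (SE 0.45, edgeR adjusted p = 0.00411). The WT endothelial values rest on 7, 2 and 6 UMIs. Hepatocyte markers in endothelial nuclei stood at 29.8% to 38.5% of the hepatocyte level in HNKO mice and at 15.9% to 28.0% in WT mice. In CPM they summed to 8048, 7691 and 3917 in HNKO mice and to 5089, 6873 and 4773 in WT mice. Their part in the Me1 value was not tested. Msrb3, named because it passed this test, is a methionine sulfoxide reductase that is not a classical NRF2 target. It was 23.6, 22.5 and 26.7 CPM in WT and 96.7, 28.2 and 61.2 CPM in HNKO hepatocytes, against 799, 583 and 886 CPM in WT and 677, 548 and 409 CPM in HNKO endothelial cells. Its log2 difference was 1.46 (SE 0.32, edgeR adjusted p = 0.00758).

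Neither call held with DESeq2 (adjusted p = 0.858 for Me1 and 0.883 for Msrb3) or without the mouse block in edgeR (adjusted p = 0.919 for both). By edgeR with 1 mouse left out, the Me1 difference ranged from -2.58 to -1.84 and was not called without WT mouse 1 (adjusted p = 0.0527) or HNKO mouse 1 (adjusted p = 0.149). That of Msrb3 ranged from 1.12 to 1.87 and was not called without WT mouse 1 (adjusted p = 0.0868), WT mouse 3 (adjusted p = 0.117), HNKO mouse 1 (adjusted p = 0.510) or HNKO mouse 3 (adjusted p = 0.252).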

How the results depend on the processing

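In hepatocytes, endothelial, stellate and CD45+ cells, none of the 8 genes was called for genotype in the alternatives that gave it an adjusted p. Beside the main fit, which tested 8, 2, 1 and 2 of them there, thinned counts dropped Nqo1, Srxn1 and Hmox1, DESeq2 gave these 3 no adjusted p in hepatocytes, and mean CPM per nucleus has no test. By mean CPM per nucleus the log2 difference moved beyond its SE for Nqo1 (from 1.104 to 2.01) and Txnrd1 (from 0.12 to 0.38). For the count of called genes, omitting the low-count filter gave 35 in hepatocytes, 16 in endothelial, 29 in stellate and 23 in CD45+ cells and 23 for the zone interaction, and DESeq2 gave 21, 1, 1 and 4, 2 for the hepatocyte-endothelial interaction and 1034 for the zones. Without the mouse block the interaction called 0 and the zones 226 genes, and a narrower cut of the zone score (1 in 4 nuclei at each end) called 0 for the zone interaction. Without the filter Gclc was called lower in the pericentral zone (-0.28, adjusted p = 0.0273), and Nfe2l2 turned sign in stellate cells (0.045) and between zones (-0.012). With the narrower cut the zone interaction of Gclm turned to -0.0082.

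Leaving out 1 mouse gave 0 to 32 calls in hepatocytes (32 without HNKO mouse 2), 0 to 51 in stellate and 0 to 7 in CD45+ cells (both highest without HNKO mouse 2), 5 (without HNKO mouse 3) to 32 (without HNKO mouse 2) for the hepatocyte-endothelial interaction and 0 to 6 for the zone interaction. Log2 values then ranged in hepatocytes from -0.18 to 1.60 (Osgin1), -0.063 to 0.60 (Gclc) and -0.028 to 0.23 (Txnrd1), in endothelial cells from -0.73 to 0.042 (Gclc), in stellate cells from -0.16 to 0.080 (Nfe2l2), for the hepatocyte-endothelial interaction from -0.32 to 0.30 (Gclm), between zones from -0.056 to 0.090 (Nfe2l2) and -0.049 to 0.070 (Txnrd1), and for the zone interaction from -0.12 to 0.22 (Gclm) and -0.27 to 0.089 (Txnrd1). The cause was not tested. No paired analysis was possible because the hashtag numbers of WT and HNKO mice are not shared and each pool held all mice. Depth limited Nqo1, Srxn1 and Hmox1 throughout.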
